A study of Helianthus annuus with 24 samples.

Results

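The floral organ identity genes of the MADS-box family were followed in floral nectaries and leaf of sunflower (Helianthus annuus). They were taken as every assembled contig whose Arabidopsis match in the authors' deposited table is AG (AT4G18960), SEP1 (AT5G15800), PI (AT5G20240), STK (AT4G09960), AP3 (AT3G54340), FUL (AT5G60910) or AP1 (AT1G69120), which gave 16 of 42063 contigs. AG and SEP1 had 2 contigs each, PI and STK 1 each, AP3 2, and FUL and AP1 4 each. The table holds no sequences, so each name is that of an Arabidopsis match and not of a sunflower gene shown to be its counterpart. The study holds 24 RNA-seq libraries in 8 groups of 3. The nectary groups came from 6 interspecific crosses, of which lines 412 and 441 are labelled low, 452 and 456 medium and 434 and 467 high in nectar production, and from the maintainer line ER, for which no class is given. Each nectary library pooled about 50 nectaries from different plants, cut by hand from mature secreting florets of plants about 40 days old, at 4 to 8 h after dawn over several days. All plants grew in a greenhouse at 23 °C with 16 h of light and 8 h of dark, and no treatment is given. The 3 leaf libraries are labelled line 434, whereas the series' design text names ER as the source of the leaf, so the line of the leaf was taken from the labels and ER nectary was also compared with it.

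Flower organs are laid down by combinations of MADS-box transcription factors. In Arabidopsis the A-function gene AP1 acts in sepals and petals and in the identity of the floral meristem, the B-function genes AP3 and PI act together in petals and stamens, the C-function gene AG acts in stamens and carpels, STK acts in ovules, and SEP genes supply the E function that all of these complexes need. FUL, a close relative of AP1, acts in meristem identity and in the fruit wall. Nectaries are secretory glands, and in Arabidopsis their formation needs the YABBY factor CRC, which is regulated by floral MADS-box proteins.

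Each value is an upper-quartile-normalized expression score deposited in whole numbers, and 1 read was estimated to be worth 0.678 to 1.5 units, so that 3 reads stood for 2.03 to 4.5 units. Estimated depth was 8.45 to 16.09 M reads per library. Lengths of the contigs are unknown, so levels are compared between samples and never between contigs. The CRC match Helianthus1659 averaged 19846 to 27681 in the nectary lines and 58.3 in leaf. The nectar sugar exporter SWEET9, matched by Helianthus17324, averaged 16117 to 166600 in the nectary lines and 70.7 in leaf. Summed leaf markers reached 666612 to 1037207 in leaf and 421 to 2431 in nectaries. Replicate 3 of line 452 stood apart with 3903 contigs at 0, against 1291 to 2620 in the other libraries, and replicate 2 of line 456 had the highest summed leaf markers of the nectary libraries and the highest summed pollen and tapetum markers (4679, against 1053 to 3529 in the others). Results that rest on these libraries are given without them where a call changes.

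In nectaries against leaf, 1 group of contigs (both AG, both SEP1, the PI, both AP3 matches and 1 AP1 match) was higher in every nectary line and another (STK, 1 FUL and 1 AP1 match) was lower in every line. After median-ratio rescaling the AP3 match Helianthus4961 was no longer called higher in line 467 (0.55, log2; limma adjusted p = 0.137) and in ER (0.48, adjusted p = 0.188). With limma on log2(value + 1), 9 of the 15 contigs with a mean of at least 10 were higher in line 434 nectary than in leaf at an adjusted p under 0.05, 3 were lower and 3 were not called. Over all 39981 contigs tested, 39.6% were called higher and 22% lower, and the members' shares were 60% and 20%. The median change was 3.19 (log2) over the 15 and 0.48 over all contigs. For the mean of the 7 nectary lines, 8 were higher, 3 lower and 4 not called, beside 45.9% and 25.1% of all contigs, with medians of 1.93 and 0.48. Rescaling each library by its median ratio to the others moved the median of all contigs from 0.48 to 0.01 in the line 434 comparison, and the share of higher among called contigs from 64.4% to 48.7%. By line, 9 contigs were higher than leaf in 412, 441, 452 and 434, 10 in 456, and 8 in 467 and ER. All contigs were called higher at 40.7% in 412, 41.9% in 441, 31.1% in 452, 36.3% in 456, 41.3% in 467 and 41.1% in ER. Lower were 3 contigs in each line but 467 with 4 and ER with 6, where all contigs were called lower at 20.2% in 412, 22.4% in 441, 21.1% in 452, 20.9% in 456, 24% in 467 and 24.9% in ER. These comparisons all use the same 3 leaf libraries.

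**Figure D1:**
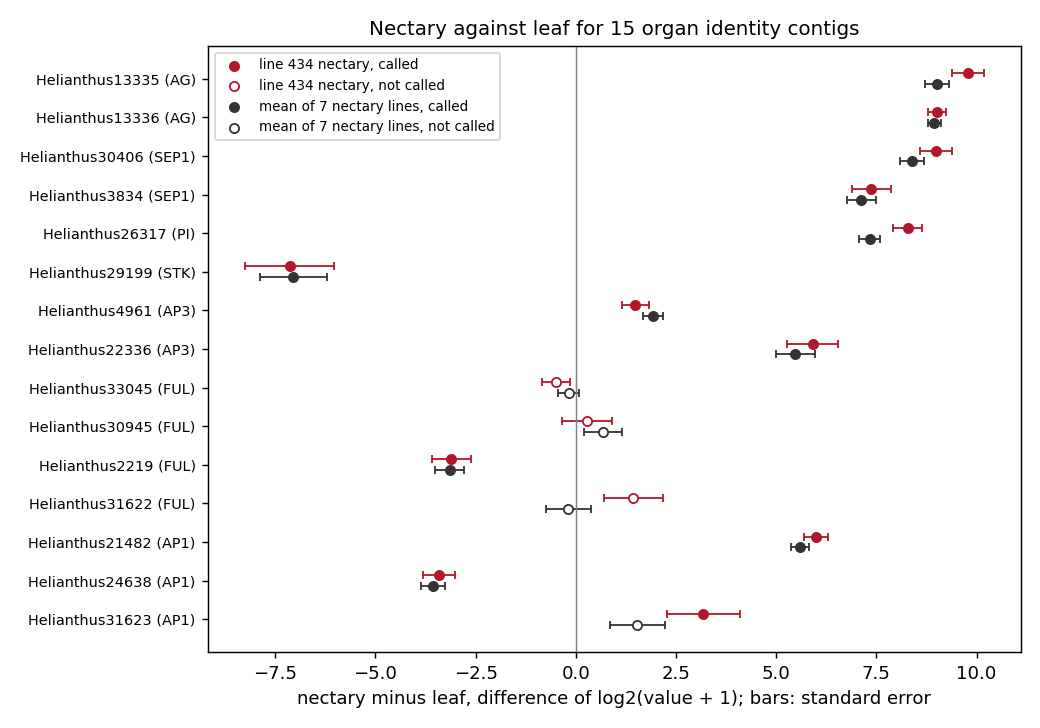
Difference between nectary and leaf in log2(value + 1) for the 15 tested contigs (x axis), with bars for the standard error. Red points are line 434 nectary and black points the mean of the 7 nectary lines, filled where the adjusted p is under 0.05. AG, SEP1 and PI matches sit at 7.12 to 9.79, the STK match at -7.14 and -7.05, and FUL and AP1 matches lie on both sides of 0.

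Both C-function matches were higher in nectaries than in leaf. AG, which in Arabidopsis ends the growth of the floral meristem and specifies stamens and carpels, matched Helianthus13335 and Helianthus13336. In leaf, Helianthus13335 stood at 23, 19 and 14. Its nectary values were 6452, 8947 and 10733 in line 412, 7647, 6861 and 6031 in 441, 7271, 5652 and 1762 in 452, and 12163, 4876 and 11889 in 456. They were 16616, 16210 and 18369 in line 434, 14815, 13618 and 12142 in 467, and 19461, 15850 and 22695 in ER. All 21 nectary libraries were far above leaf, ER and the high lines were at the top, and the lowest value belonged to replicate 3 of line 452. The mean in line 434 was 17065 ± 1147 (SD, n = 3) against 18.7 ± 4.51 in leaf, a change of 9.79 ± 0.39 (log2, SE; limma adjusted p = 4.21e-14).

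The other AG match, Helianthus13336, was far less variable between lines. It stood at 25, 25 and 10 in leaf. In nectaries it was 9286, 10456 and 10168 in line 412, 8843, 11186 and 10148 in 441, 8451, 7488 and 7407 in 452, and 8381, 7049 and 7399 in 456. In the others it was 10846, 9112 and 10420 in line 434, 10875, 12445 and 10739 in 467, and 11921, 9827 and 13316 in ER. The 6 medium libraries lay below every low and every high library, and the remaining lines overlapped. Its change in line 434 against leaf was 9.02 ± 0.23 (log2, SE; limma adjusted p = 8.14e-17). Since the contigs carry adjacent numbers they may share reads, which the table cannot tell.

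The ratio of Helianthus13335 to Helianthus13336 within a library is given by line as a description, with no test. It averaged 1.69 ± 0.14 in line 434 and 1.65 ± 0.05 in ER (SD, n = 3). It was 1.25 ± 0.49 in line 456, 1.20 ± 0.15 in 467, 0.87 ± 0.18 in 412, 0.69 ± 0.15 in 441 and 0.62 ± 0.33 in 452. The lowest single ratio, 0.238, was that of replicate 3 of line 452. Lengths being unknown, the ratio does not show which contig is the more abundant RNA.

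SEP1, an E-function gene whose protein bridges the other organ identity proteins into complexes, matched Helianthus30406 (closest to Arabidopsis SEP2 in the UniRef column) and Helianthus3834. Helianthus30406 stood at 8, 1 and 7 in leaf. Its nectary values were 1525, 1793 and 1867 in line 412, 1592, 1394 and 1489 in 441, 1293, 1514 and 548 in 452, and 1270, 1572 and 1310 in 456. They were 2587, 2573 and 2805 in line 434, 1966, 2215 and 1785 in 467, and 2477, 2399 and 3192 in ER. As with Helianthus13335, ER and 434 headed the lines, and replicate 3 of line 452 was the lowest nectary library. The change in line 434 against leaf was 8.98 ± 0.39 (log2, SE; limma adjusted p = 1.68e-13).

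Helianthus3834 was at or under the value of 3 reads in all 3 leaf libraries (1, 0 and 4). Nectary values were 304, 317 and 393 in line 412, 369, 405 and 570 in 441, 311, 174 and 109 in 452, and 363, 267 and 350 in 456. It was 234, 595 and 326 in line 434, 263, 604 and 239 in 467, and 199, 168 and 246 in ER. Replicates within the high lines differed more than 2-fold, and neighbouring lines in the order of means overlapped except between 456 and ER. It was higher than leaf in line 434 by 7.38 ± 0.48 (log2, SE; limma adjusted p = 6.12e-11), a size that depends on the added constant of 1, and it was the only 1 of 14 contigs not called among the 7 lines (adjusted p = 0.0728).

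Of the B-function genes, PI was matched by Helianthus26317, whose UniRef description is the Gerbera protein GGLO1. PI works only as a partner of AP3 in Arabidopsis. In leaf it stood at 1, 0 and 0, at or under 3 reads in each library. Its nectary values were 142, 145 and 160 in line 412, 204, 263 and 276 in 441, 127, 177 and 225 in 452, and 174, 220 and 345 in 456. They were 364, 458 and 358 in line 434, 160, 278 and 115 in 467, and 205, 88 and 141 in ER. Line 434 lay above every library of the other lines, and the other 6 lines overlapped with their neighbours. The change in line 434 against leaf was 8.28 ± 0.36 (log2, SE; limma adjusted p = 1.27e-13), again with a size set partly by the added constant.

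**Figure D2:**
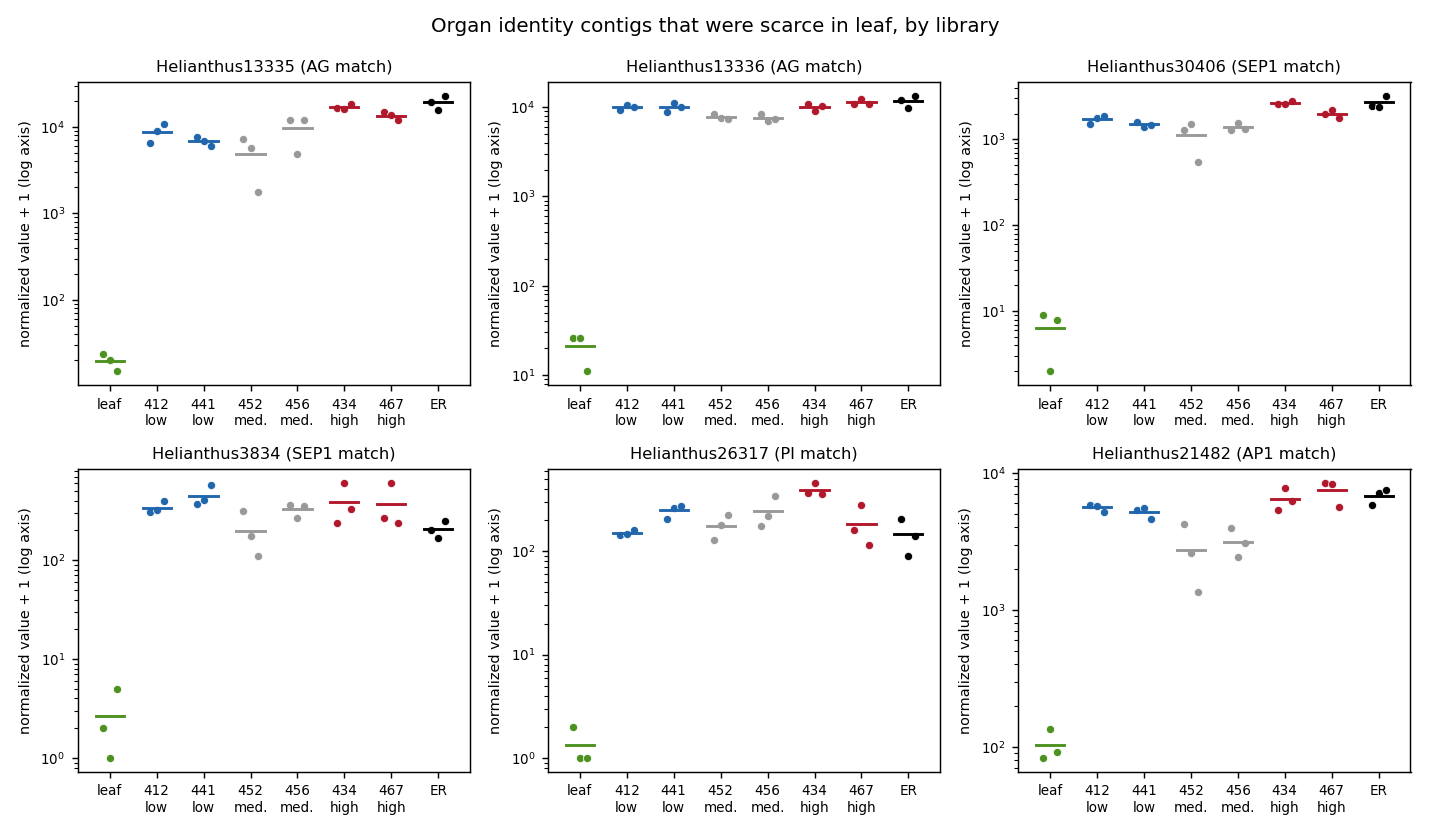
Normalized value + 1 (log axis) of 6 contigs in every library, with leaf in green, low lines in blue, medium in grey, high in red and ER in black; points are libraries and lines are group means. All 21 nectary libraries lie above the 3 leaf libraries in each panel, and 1 grey point of line 452 lies low for both the AG match Helianthus13335 (1762) and the SEP1 match Helianthus30406 (548).

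The AP3 matches, Helianthus4961 and Helianthus22336, ranked the lines differently. AP3 is the partner of PI in petal and stamen identity. Helianthus4961 was present in leaf, at 218, 154 and 107. The nectary libraries gave 979, 1030 and 983 in line 412, 748, 1070 and 1014 in 441, 839, 1061 and 657 in 452, and 579, 1508 and 553 in 456. In the others it was 574, 356 and 388 in line 434, 391, 267 and 284 in 467, and 292, 419 and 223 in ER. Every nectary library exceeded leaf, and the high lines and ER had the lowest means of the nectaries, the lines in which the AG match Helianthus13335 had its highest. Against leaf it was higher in line 434 by 1.48 ± 0.33 (log2, SE; limma adjusted p = 0.000794), and the calls in 467 and ER depended on the scaling.

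Helianthus22336 was scarce in leaf (0, 8 and 23). Its nectary values were 265, 355 and 243 in line 412, 315, 295 and 403 in 441, 196, 263 and 216 in 452, and 176, 255 and 200 in 456. They were 372, 310 and 403 in line 434, 257, 278 and 327 in 467, and 212, 205 and 226 in ER. Adjacent lines overlapped throughout the order of means, from 362 in line 434 to 210 in line 456. It was higher in line 434 than in leaf by 5.91 ± 0.64 (log2, SE; limma adjusted p = 1.23e-07).

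**Figure D3:**
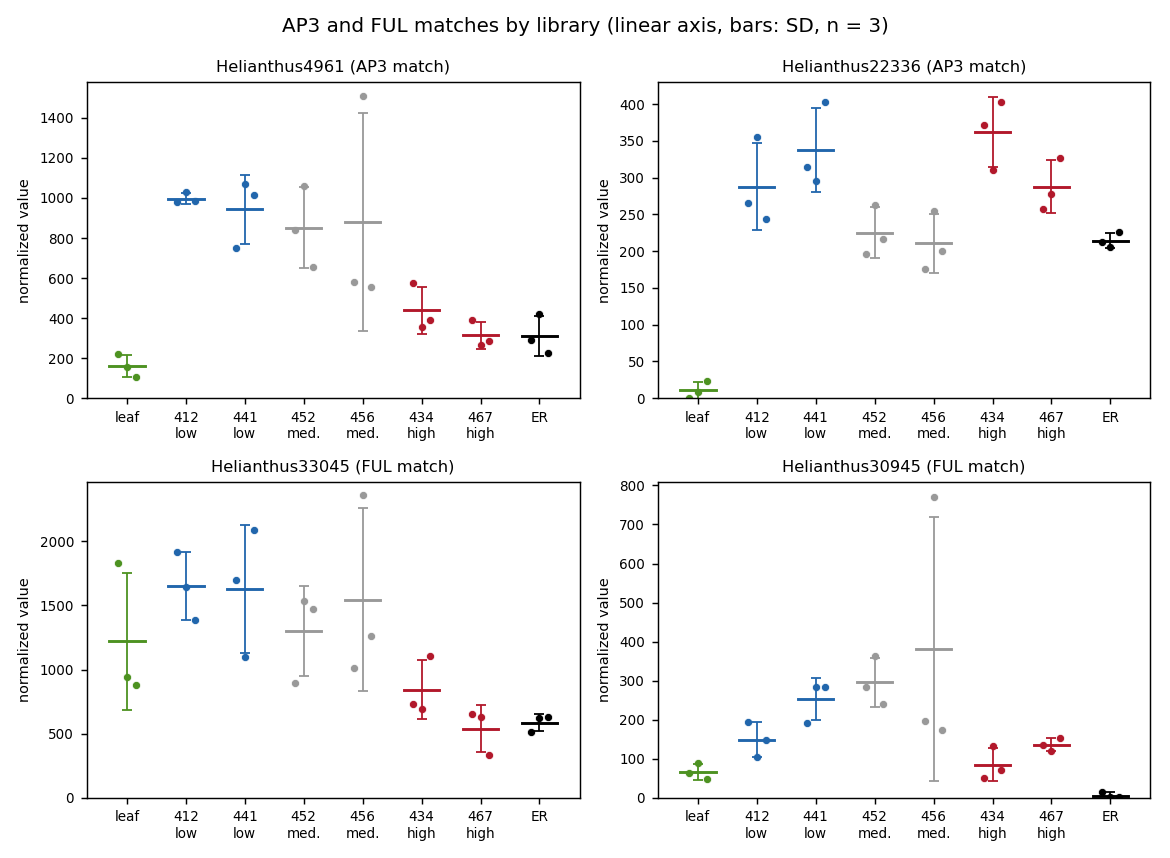
Normalized value (linear axes) of the AP3 matches Helianthus4961 and Helianthus22336 and the FUL matches Helianthus33045 and Helianthus30945 by library; points are libraries, lines are group means and bars are SD (n = 3), coloured by class as above with ER in black. High lines and ER are lowest among the nectaries for Helianthus4961, and Helianthus30945 is close to 0 in ER (5.67 ± 8.08); 1 library of line 456 is the highest point for Helianthus4961 (1508) and Helianthus30945 (770).

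The STK match went the other way. STK directs ovule identity and seed stalk development in Arabidopsis, and its match Helianthus29199, whose UniRef description is an uncharacterized grape protein, stood at 431, 264 and 366 in leaf. In nectaries it was 7, 2 and 0 in line 412, 1, 0 and 7 in 441, 3, 6 and 22 in 452, and 1, 20 and 0 in 456. It was 0, 0 and 14 in line 434, 0, 1 and 0 in 467, and 0, 0 and 1 in ER. Of the 21 nectary libraries, 15 were at or under the value of 3 reads and 9 at 0, so differences among lines could not be resolved at this depth and the contig was not tested there. Its change in line 434 against leaf was -7.14 ± 1.10 (log2, SE), and it was called lower in 7 of 7 lines (limma adjusted p = 1.43e-05 in line 434). Of 5 ovule marker genes BEL1 alone had contigs, summing to 1988 to 2577 in leaf and 86 to 418 in nectaries. Leaf holds no ovules, so BEL1 does not measure ovule cells in this comparison. In bulk tissue, fewer cells of a type and less RNA per cell cannot be told apart.

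AP1, the A-function gene, matched 4 contigs with opposite patterns. All of them but Helianthus21482 have AGAMOUS-like 8, the other name of FUL, as their UniRef description. Helianthus21482, whose UniRef description is the Gerbera protein GSQUA1, stood at 82, 135 and 91 in leaf. Its nectary values were 5855, 5761 and 5201 in line 412, 5369, 5580 and 4643 in 441, 4237, 2617 and 1348 in 452, and 3955, 2426 and 3073 in 456. They were 5381, 7821 and 6285 in line 434, 8473, 8364 and 5687 in 467, and 5862, 7131 and 7532 in ER. The medium lines lay below all the other nectary libraries, and every nectary library lay above leaf. The change in line 434 against leaf was 5.99 ± 0.30 (log2, SE; limma adjusted p = 9.97e-13), with means of 6496 ± 1234 and 103 ± 28.4 (SD, n = 3).

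Helianthus24638, an AP1 match with the AGAMOUS-like 8 description, was a leaf contig. Its leaf values were 554, 392 and 472. Nectary values were 79, 39 and 39 in line 412, 50, 104 and 66 in 441, 25, 76 and 51 in 452, and 52, 63 and 48 in 456. In the others it was 35, 48 and 48 in line 434, 9, 7 and 6 in 467, and 37, 35 and 79 in ER. Line 467 lay below every other nectary library and leaf above them all. The contig was lower than leaf in line 434 (-3.41 ± 0.40, log2, SE; limma adjusted p = 3.69e-07), and its neighbour Helianthus24637, also matched to AP1, had a mean under 10, ranged from 8 to 31 in leaf and from 0 to 9 in nectaries, and was not tested.

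The last AP1 match, Helianthus31623, was low everywhere, at 1 to 34 in leaf and 1 to 110 in nectaries. Helianthus31622, a FUL match, carries the adjacent number and ranged from 38 to 56 in leaf and from 0 to 210 in nectaries. Both were highest in replicate 3 of line 434, with 110 and 210, and both averaged more in lines 434, 412 and 456 than in 441, 467, 452 and ER. Means of Helianthus31622 were 138 ± 64.6 in 434, 120 ± 76.3 in 412 and 109 ± 23.5 in 456 (SD, n = 3). They were 46 ± 9.54 in 452, 26 ± 7.94 in 441, 18.7 ± 1.53 in 467 and 11.7 ± 12.6 in ER. Helianthus31623 was higher than leaf in line 434 (3.19 ± 0.91, log2, SE; limma adjusted p = 0.0051) and in 3 of 7 lines in all, of which line 412 was lost after median-ratio rescaling (adjusted p = 0.0505). Helianthus31622 was called only in ER, where it was lower (-2.86, adjusted p = 0.00229), and after rescaling also in line 467 (-1.74, adjusted p = 0.0436).

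FUL matches were mostly not higher in nectaries. Helianthus33045 stood at 1833, 944 and 882 in leaf. The nectary libraries gave 1916, 1647 and 1390 in line 412, 1697, 1099 and 2087 in 441, 896, 1535 and 1475 in 452, and 1015, 2360 and 1263 in 456. It was 729, 689 and 1109 in line 434, 657, 629 and 330 in 467, and 511, 623 and 626 in ER. Leaf overlapped with all lines but 467 and ER. Line 434 differed from leaf by -0.48 ± 0.35 (log2, SE; limma adjusted p = 0.231), whereas lines 467 (-1.16, adjusted p = 0.00639) and ER (-0.98, adjusted p = 0.0181) were lower. After median-ratio rescaling the line 434 difference became -0.96 with an adjusted p of 0.0293, so this contig's call depends on the scaling.

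Helianthus2219, also matched to FUL, was lower than leaf in every line. It stood at 410, 392 and 477 in leaf. In nectaries it was 164, 85 and 68 in line 412, 56, 33 and 136 in 441, 65, 94 and 94 in 452, and 35, 121 and 60 in 456. In the others it was 42, 43 and 63 in line 434, 13, 38 and 16 in 467, and 15, 15 and 17 in ER. Lines 467 and ER had the lowest means, 22.3 ± 13.7 and 15.7 ± 1.15 (SD, n = 3). The change in line 434 was -3.11 ± 0.48 (log2, SE; limma adjusted p = 1.58e-05).

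**Figure D4:**
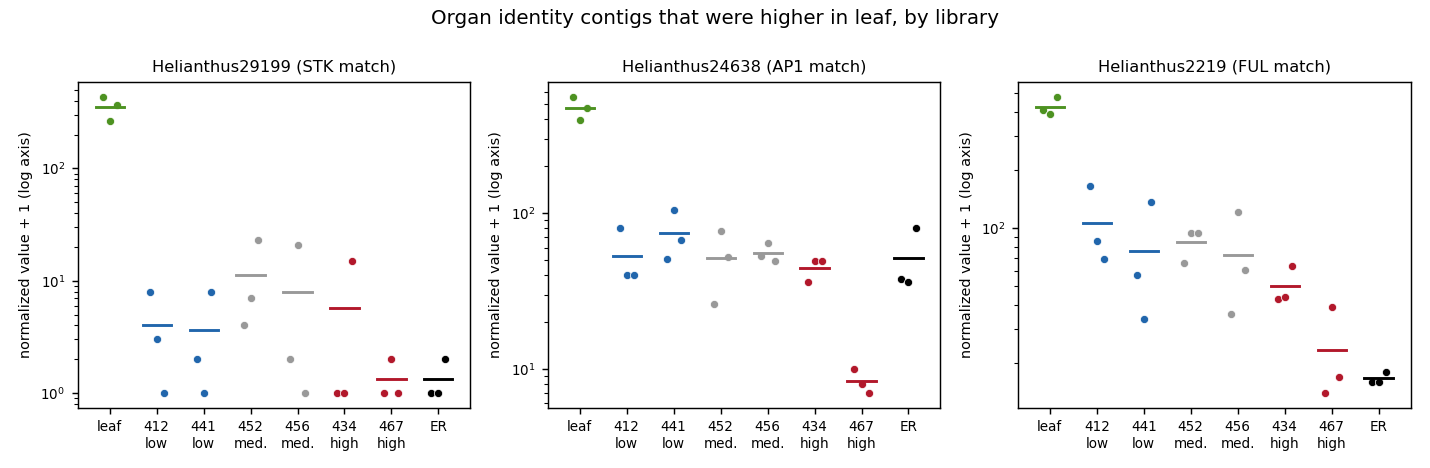
Normalized value + 1 (log axis) of the STK match Helianthus29199, the AP1 match Helianthus24638 and the FUL match Helianthus2219 in every library; points are libraries, lines are group means, leaf is green and ER black, with low, medium and high lines in blue, grey and red. The leaf libraries lie above all 21 nectary libraries in each panel, at 264 to 431, 392 to 554 and 392 to 477 before 1 is added.

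All FUL matches differed among the nectary lines, and Helianthus30945 had the largest F of them (F = 22.7, limma). Its leaf values were 63, 88 and 48. Nectary values were 194, 105 and 148 in line 412, 192, 283 and 284 in 441, 285, 364 and 239 in 452, and 197, 770 and 173 in 456. It was 51, 133 and 71 in line 434, 136, 120 and 152 in 467, and 15, 1 and 1 in ER. ER lay below every other library, leaf included, and 2 of its 3 libraries were at or under the value of 3 reads. The contig was higher than leaf in 3 of 7 lines (441, 452 and 456), lower in ER (-4.03, limma adjusted p = 1.21e-05) and not called in 412, 434 and 467.

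Summed over the contigs of a match, 5 of the 7 genes (AG, SEP1, PI, AP3 and AP1) were higher in line 434 nectary than in leaf, STK was lower, and FUL was not called (-0.65 ± 0.31, log2, SE; limma adjusted p = 0.0661), where 72.3% of 10005 summed genes were called in either direction. The summed AP1 change, 3.44 ± 0.28, lay between those of its leaf contig and its nectary contig, which differ in their UniRef description. AP3 summed to a change of 2.25 ± 0.26.

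Among the nectary lines, the AG match Helianthus13335 and the SEP1 match Helianthus30406 were higher in the high lines than in the low lines, while an AP3, an AP1 and 2 FUL matches were lower. In the limma fit on the 21 nectary libraries, 13 of 14 tested contigs differed among the 7 lines (92.9%, beside 50.6% of all 38457 contigs). The largest F was that of the FUL match Helianthus30945 (F = 22.7, adjusted p = 2.75e-06), followed by the AP1 match Helianthus24638 (F = 11.9, adjusted p = 0.000146) and the AP3 match Helianthus4961 (F = 10.8, adjusted p = 0.000262). Rescaled by median ratio, Helianthus13336 was no longer called (adjusted p = 0.0661). With values summed by gene, 6 of 6 tested genes differed, beside 58.4% of 9773.

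**Figure D5:**
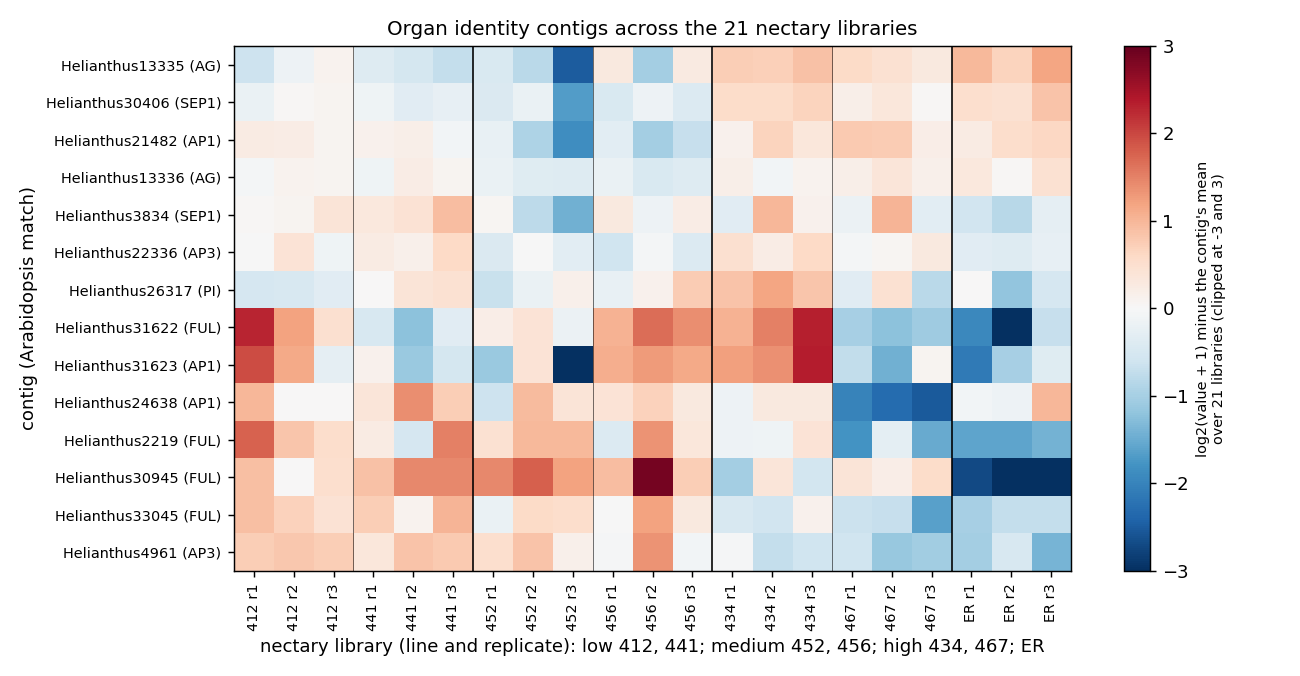
Values of 14 contigs (rows, with their Arabidopsis match) in the 21 nectary libraries (columns, grouped as low, medium, high and ER) as log2(value + 1) minus the contig's mean over these libraries, cut at -3 and 3, red above and blue below the mean. The AG match Helianthus13335 and SEP1 match Helianthus30406 are red in line 434 and ER where the AP3 match Helianthus4961 and FUL match Helianthus33045 are mostly blue, and the FUL match Helianthus30945 is deepest blue in ER.

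In the high lines against the low lines, 2 of 14 contigs were called higher and 4 lower (14.3% and 28.6%, beside 12.3% and 18.9% of all contigs), shares near those of all contigs. For Helianthus13335 the 6 low libraries ran from 6031 to 10733 with a median of 7254 and the 6 high libraries from 12142 to 18369 with a median of 15512, and the classes did not overlap. Its difference was 0.99 ± 0.29 (log2, SE; limma adjusted p = 0.0131). Helianthus30406 ran from 1394 to 1867 (median 1558) in the low and from 1785 to 2805 (median 2394) in the high lines, with 5 of 6 high libraries above all low ones. Its difference of 0.52 ± 0.18 passed narrowly (limma adjusted p = 0.0371) and was lost without any 1 of 10 libraries, namely the replicates of 441 and 434 and replicates 1 and 2 of 412 and 467 (adjusted p up to 0.086). Summed over both contigs, AG was 0.55 ± 0.16 higher in the high lines (adjusted p = 0.0099, beside 38.8% of summed genes called) and SEP1 was not called (0.41 ± 0.18, adjusted p = 0.0735).

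The contigs lower in the high lines matched AP3, FUL and AP1. The AP3 match Helianthus4961 ran from 748 to 1070 in the low lines (median 998) and from 267 to 574 in the high lines (median 372), without overlap, a difference of -1.40 ± 0.23 (log2, SE; limma adjusted p = 0.000142). The FUL match Helianthus33045 had medians of 1672 and 673 and overlapped in 1 high library, with a difference of -1.30 ± 0.23 (adjusted p = 0.000327). The FUL match Helianthus2219 (-1.31 ± 0.37, adjusted p = 0.0104) and the AP1 match Helianthus24638 (-1.65 ± 0.30, adjusted p = 0.000341) were lower too, the latter mainly through line 467, where it stood at 6 to 9 against 35 to 48 in line 434. The other AP3 match, Helianthus22336, differed by only 0.06 ± 0.13 (adjusted p = 0.785), and the other AG match, Helianthus13336, by 0.10 ± 0.11 (adjusted p = 0.52), neither being called.

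Marker sums of the libraries moved with these differences. Summed pollen and tapetum markers, in which 2 of 10 genes (ANX1 and ANX2) had contigs, ran from 1331 to 3529 in the low lines and from 2040 to 4679 in the medium. They ran from 1197 to 1728 in the high lines and from 1053 to 1306 in ER. The high lines and ER also had the lowest nectary means of the AP3 match Helianthus4961 and the FUL matches Helianthus33045 and Helianthus2219. Single libraries did not all follow: replicate 2 of line 441 had the sum of 1331 but stood at 1070 for Helianthus4961. The ANX1 contig Helianthus12194 made up most of this sum in the low lines, with means of 2342 in line 412 and 2042 in 441, against 999 in 434 and 1006 in 467. The ANX2 contig Helianthus29498 went the other way, with means of 21.3 in line 412 and 18.7 in 441 against 238 in 434 and 455 in 467. It was highest in leaf, with a mean of 544. The 8 other pollen and tapetum marker genes had no contig. Of 8 style and stigma marker genes HEC2 alone had a contig (Helianthus10108), with means of 58 in line 412, 45 in 441, 20.7 in 452, 120 in 456, 95.3 in 434, 175 in 467 and 146 in ER. It was called higher in the high than in the low lines (1.35 ± 0.46, log2, SE; limma adjusted p = 0.0336) and than in the medium lines (1.52 ± 0.46, adjusted p = 0.0147). Summed nectary markers were highest in ER (166473 to 224460) and line 434 (150915 to 172484) and lowest in replicate 3 of line 452 (26524), as was the AG match Helianthus13335. The SWEET9 contig Helianthus17324 ran the same way, with means of 135090 in 434 and 166600 in ER against 16117 in 412. The CRC contig Helianthus1659 did not, with 25878 in 412, 22946 in 434 and 26611 in ER. The CRC contig Helianthus36845 was lowest in ER among the nectary lines, at 55. The part of the markers in the differences was not tested. When the line replaced the library as the unit (2 lines a class), none of the 6 calls between high and low remained.

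Medium against low gave the fewest calls of the 3 class comparisons. Of 14 contigs, 0 were higher and 3 lower (0% and 21.4%, beside 5.68% and 8.99% of all contigs). The AP1 match Helianthus21482 ran from 1348 to 4237 (median 2845) in the medium and from 4643 to 5855 (median 5474) in the low lines, with no overlap and a difference of -0.96 ± 0.21 (log2, SE; limma adjusted p = 0.00376). The AP3 match Helianthus22336 (-0.51 ± 0.13, adjusted p = 0.0135) and the AG match Helianthus13336 (-0.38 ± 0.11, adjusted p = 0.0217) were lower as well. After median-ratio rescaling these last calls were lost (adjusted p = 0.0607 and 0.109), and that of Helianthus13336 was also lost without replicate 2 of line 412 (0.0573), without replicate 2 of line 441 (0.0575), or without both replicate 3 of line 452 and replicate 2 of line 456 (0.0595). At an unadjusted p under 0.05, limma also gave 0 higher, with no share of all contigs computed at that threshold. The largest positive difference, 0.63 ± 0.46, was that of the FUL match Helianthus30945 (adjusted p = 0.359). Between lines as units, 2 a class, none of the 3 lower calls remained, that of Helianthus21482 included (limma adjusted p = 0.38 to 0.491).

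High against medium gave the most calls, 5 higher and 5 lower of 14 (35.7% each, beside 23.8% and 20% of all contigs). Higher were the AP1 match Helianthus21482 (1.32 ± 0.21, log2, SE; limma adjusted p = 0.000124), Helianthus13335 (1.31 ± 0.29, adjusted p = 0.00178), Helianthus30406 (0.95 ± 0.18, adjusted p = 0.000611), Helianthus22336 (0.57 ± 0.13, adjusted p = 0.00303) and Helianthus13336 (0.48 ± 0.11, adjusted p = 0.00208). For Helianthus21482, Helianthus13336 and Helianthus30406 all 6 high libraries lay above all 6 medium ones. Lower were the FUL matches Helianthus30945 (-1.51 ± 0.46, adjusted p = 0.015), Helianthus2219 (-1.19 ± 0.37, adjusted p = 0.0153) and Helianthus33045 (-1.05 ± 0.23, adjusted p = 0.002), the AP1 match Helianthus24638 (-1.41 ± 0.30, adjusted p = 0.00134) and the AP3 match Helianthus4961 (-1.15 ± 0.23, adjusted p = 0.000925). Without replicate 3 of line 452 and replicate 2 of line 456, Helianthus2219 was no longer called (adjusted p = 0.0545) and the other 9 calls were, with the difference of Helianthus13335 at 0.79. Between lines as units, Helianthus21482 alone was called (adjusted p = 0.0482).

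The maintainer line ER differed from the mean of the 6 crosses in 7 of 14 contigs, 2 higher and 5 lower (14.3% and 35.7%, beside 10.4% and 13.7% of all contigs). The FUL match Helianthus30945 showed the largest difference, with a mean of 5.67 in ER and 216 in the crosses (-5.49 ± 0.50, log2, SE; limma adjusted p = 1.67e-07), and the call held between lines as units (adjusted p = 0.0111). All 3 ER libraries, at 15, 1 and 1, were below all 18 libraries of the crosses, of which the lowest stood at 51. The FUL matches Helianthus31622 (-3.12 ± 0.60, adjusted p = 0.000738) and Helianthus2219 (-1.79 ± 0.39, adjusted p = 0.00244) were lower in ER, as were Helianthus33045 (-0.94 ± 0.25, adjusted p = 0.0103) and the AP3 match Helianthus4961 (-1.13 ± 0.25, adjusted p = 0.00251). For each of these, ER overlapped with the crosses, and the call was lost between lines as units, where ER is 1 unit. Line 467 averaged 18.7, 22.3, 539 and 314 for these contigs in this order, against 11.7, 15.7, 587 and 311 in ER. All 4 FUL matches were called lower in ER, also after rescaling by median ratio. The difference of Helianthus31622 came to -1.76 without replicate 2 of ER (adjusted p = 0.00572).

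Higher in ER than in the crosses were the AG match Helianthus13335 (1.10 ± 0.31, log2, SE; limma adjusted p = 0.0138) and the SEP1 match Helianthus30406 (0.71 ± 0.20, adjusted p = 0.0126). Helianthus13335 lost its call without replicate 1 (adjusted p = 0.0604) or replicate 3 of ER (0.0971), Helianthus30406 without replicate 3 of ER (0.117) and Helianthus33045 without replicate 1 of ER (0.0719). ER is 1 line, so what is particular to the maintainer and what to any line cannot be told apart.

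Within a nectar class, at most 3 of 14 contigs were called between the lines. Between the high lines 434 and 467, 3 contigs were higher in 434 and 0 lower (21.4% and 0%, beside 5.56% and 4.83% of all contigs). Higher were the AP1 match Helianthus24638 (2.42 ± 0.42, log2, SE; limma adjusted p = 0.000494), the FUL match Helianthus31622 (2.72 ± 0.78, adjusted p = 0.0306) and the PI match Helianthus26317 (1.18 ± 0.33, adjusted p = 0.0278). The calls of Helianthus31622 and Helianthus26317 were each lost in 5 of the 6 fits that left out a library of lines 434 and 467 (adjusted p up to 0.142 and 0.165). Leaving out a library of another line ended neither call. At an unadjusted p under 0.05 limma gave 5 higher and also 0 lower. The shares of all contigs in this paragraph are at the adjusted threshold, and none was computed for the unadjusted counts. Between lines 452 and 456, 0 contigs were higher (0 also at an unadjusted p under 0.05) and only the AP1 match Helianthus31623 was lower in 452 (-2.55 ± 0.77, adjusted p = 0.0378; beside 5.62% and 6.01% of all contigs), and its call was lost without replicate 3 of line 452 (0.134) or without any 1 of the replicates of 456 (0.0804 to 0.0968). Between 412 and 441, limma called 0 of 14 (1 higher and 1 lower at an unadjusted p under 0.05), beside 4.34% higher and 1.64% lower of all contigs.

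Some of the contigs followed each other in 2 sets across the 21 nectary libraries. These libraries differ in depth, class and line, so the correlations describe these libraries only. Helianthus13335 (AG) went with Helianthus30406 (SEP1, Pearson r = 0.887) and Helianthus21482 (AP1, r = 0.797). Replicate 3 of line 452 was the lowest library for all 3 (1762, 548 and 1348), and no correlation was computed without it. Helianthus4961 (AP3) went with Helianthus33045 (FUL, r = 0.854), which in turn went with Helianthus2219 (FUL, r = 0.883). Between the sets the sign was negative, with r = -0.691 for Helianthus13335 and Helianthus4961. The PI match went with neither AG match (r = 0.04 for Helianthus13335 and -0.08 for Helianthus13336), nor with Helianthus4961 (r = -0.03). The AP3 match Helianthus22336 had r = 0.06 with Helianthus13335 and 0.10 with Helianthus4961. For the SEP1 match Helianthus3834 these were 0.27 and 0.04.

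Among 11708 annotated contigs with a mean of at least 100 in nectaries, those most like Helianthus13335 matched an AUX/IAA transcriptional regulator (Helianthus8626, r = 0.970), apyrase 2 (Helianthus12903, r = 0.969) and a PLATZ transcription factor (Helianthus37851, r = 0.967). For the SEP1 match Helianthus30406 they matched methionine synthase 2 (Helianthus25473, r = 0.951), a dihydropyrimidine dehydrogenase (Helianthus35030, r = 0.943) and methyl esterase 11 (Helianthus6205, r = 0.939). For the AP3 match Helianthus4961 they matched alpha-L-arabinofuranosidase 1 (Helianthus7871, r = 0.940), a GDSL lipase (Helianthus33027, r = 0.925) and a Sec23/Sec24 protein (Helianthus24140, r = 0.910). The nearest to the AP1 match Helianthus21482 was a DnaJ chaperone (Helianthus23127, r = 0.917), to the FUL match Helianthus33045 a phytosulfokine precursor (Helianthus36518, r = 0.909), and to the PI match Helianthus26317 a bHLH factor (Helianthus23915, r = 0.775). With the most alike of 11708 contigs picked out, high values arise by selection, and none was tested.

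Of 32 other MADS-box genes of the same type listed from Arabidopsis, 8 had contigs, 13 in all. In line 434 nectary against leaf 6 were higher and 5 lower, beside 39.6% and 22% of all contigs, with a median change of 0.43 (log2), close to the 0.48 of all contigs. The further E-function matches were high in nectaries: SEP2 (Helianthus30407) averaged 1141 in line 434 and 2.67 in leaf (8.28 ± 0.20, log2, SE; limma adjusted p = 3.55e-17), SEP2 (Helianthus30405) averaged 2713 and 18.7 (7.16 ± 0.18, adjusted p = 5.28e-17), and SEP3 (Helianthus22887) averaged 418 and 3 (7.06 ± 0.47, adjusted p = 9.26e-11). These SEP2 contigs and the SEP1 match Helianthus30406 carry consecutive numbers and may share reads. The other SEP3 match, Helianthus30425, averaged 1306 in line 434 and 185 in leaf. The flowering repressor SVP was matched by a contig (Helianthus17346) at 131 in leaf and 1.67 in line 434 (-5.62 ± 0.84, adjusted p = 1.01e-05), whereas the SVP match Helianthus22710 was higher, at 101 and 547 (2.43 ± 0.25, adjusted p = 5.19e-08). The remaining SVP matches averaged less in line 434 than in leaf, Helianthus37537 with 18 against 267 and Helianthus22429 with 11.7 against 67.3. The Arabidopsis C-function and ovule relatives SHP1, SHP2 and TT16 had no contig under those matches. Among the lines 7 of 10 tested contigs differed, beside 50.6% of all contigs, led by AGL42 (Helianthus42187, adjusted p = 1.37e-06), AGL15 (Helianthus12772, adjusted p = 0.000437), the SVP match Helianthus22710 (adjusted p = 0.00248) and MAF2 (Helianthus16599, adjusted p = 0.00472), and high against low gave 2 higher and 1 lower of 10, beside 12.3% and 18.9% of all contigs.

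Regulators of the organ identity genes were listed as 22 Arabidopsis genes, of which 9 had 26 contigs. LFY, UFO and WUS, activators of the floral genes, had none. In line 434 nectary against leaf 10 of 25 tested contigs were higher and 4 lower, beside 39.6% and 22% of all contigs (median 0.36, log2). The flowering signal FT was matched by Helianthus10311, with 5586 in line 434 and 1120 in leaf (2.51 ± 0.51, log2, SE; limma adjusted p = 0.000287), and it averaged 806 in line 467 and 874 in ER, below the leaf mean. Its other contig, Helianthus10310, stood at 128 in line 434 and 132 in leaf (-0.01 ± 0.43, adjusted p = 0.995). The corepressor LUG was matched by Helianthus11508, with 39.3 and 5.67 (3.13 ± 0.78, adjusted p = 0.0018). Its other contigs differed less in level: Helianthus5609 averaged 1513 in line 434 and 1277 in leaf, and Helianthus11507 156 and 114. Helianthus11510 averaged 103 and 28, and Helianthus5608 6.67 and 1.67. Contigs of AP2, the A-function gene that in Arabidopsis opposes AG, were lower in the high than in the low lines. Helianthus746 averaged 340 and 830 (-1.30 ± 0.19, adjusted p = 3.2e-05) and Helianthus743 averaged 151 and 380 (-1.34 ± 0.22, adjusted p = 0.000149). All 5 AP2 contigs, whose adjacent numbers mean that they may share reads, were called lower there. The FT match Helianthus10310 was higher in the high lines, at 87.3 against 20.3 (1.87 ± 0.30, adjusted p = 0.000125), as was the EMF2 match Helianthus20488, at 482 against 373 (0.37 ± 0.09, adjusted p = 0.00357). Over the whole list, high against low gave 2 of 25 higher and 9 lower, beside 12.3% and 18.9% of all contigs.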

How the data were processed

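Libraries of 7 nectary lines and leaf, 3 each, were made with TruSeq RNA v2 and read as 50-base paired ends in 2 lanes of a HiSeq 2500, with 330 M reads reported, per the labels' protocols. The deposited score per contig was upper-quartile normalized by the authors, per the file headers, and holds whole numbers. The header of ER replicate 3 does not name the normalization, but its upper quartile of values above 0 was 201.25, against 201 in the others. No source used here names the aligner, the assembler or the counter. Spacing of the low values was used to estimate what 1 read is worth. This gave 8.45 to 16.09 M reads per library and covers counting error only.

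Values were not modelled as counts, since they are normalized and rounded. They were taken as log2(value + 1), which understates changes of low contigs. The filter kept contigs averaging 10 or more in a fit's libraries, 39981 in all libraries and 38457 in nectaries, and group means were estimated by limma 3.58.1 (R 4.3.3) under moderated, trended variances. Calls required a Benjamini-Hochberg adjusted p under 0.05 over every contig tested. Nectary against leaf used 24 libraries, and comparisons among nectaries 21, with classes as the mean of 2 lines. Replicates pool different plants, per the labels. The procedure was tested on simulated data. The members and lists were chosen with earlier results of these data known. Contigs named outside the members were the 3 most alike per gene and up to 4 per list with the largest change against leaf or F among lines. The table's 16 mean and SD columns stayed unused. Alternatives were 5 as the added constant, a filter at 50 or none, median-ratio rescaling, a replicate block, each library left out, the compared groups alone, the line as the unit, ER nectary in place of line 434 and values summed by match. Tables were read and plotted with Python 3.11.15, numpy 2.4.6, pandas 2.3.3 and matplotlib 3.10.9.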

Additional observations from a re-analysis of the deposited data

Results flagged for a closer look

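Of 45 groups of 6 libraries examined (a contig in a nectar class), 4 held a library whose gap to its nearest neighbour exceeded 0.625 of the group's range, and chance gives about 1 in 20 groups. The SEP1 match Helianthus30406 stood at 548 in replicate 3 of line 452, against 1270 to 1572 in the other medium libraries; this is the library with the most contigs at 0. The FUL match Helianthus30945 stood at 770 in replicate 2 of line 456, against 173 to 364 in the other medium libraries; this library also had the highest nectary values of the AP3 match Helianthus4961 (1508) and the FUL match Helianthus33045 (2360), and the highest summed pollen and leaf markers of the nectaries. The AP3 match Helianthus4961 stood at 748 in replicate 1 of line 441, against 979 to 1070 in the other low libraries. The STK match Helianthus29199 stood at 14 in replicate 3 of line 434, against 0 to 1 in the other high libraries, in the library where 3 reads are worth the most (4.5 units).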

How the results depend on the processing

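Of 1907 alternative values of 66 called results of single contigs, 1844 kept their direction and call, 63 kept the direction and lost the call, and 0 reversed. The line as the unit, which leaves 2 lines a class, took away 24 of 26 calls among nectary classes and ER. It left 0 higher and 0 lower for high against low, 0 lower for medium against low, 1 higher and 0 lower for high against medium, and 0 higher and 1 lower for ER. With ER nectary in place of line 434, 6 contigs were lower than leaf in place of 3, the FUL matches Helianthus33045, Helianthus30945 and Helianthus31622 being added. Rescaling left 1 contig lower for medium against low. Line 434 against 467 gave 5 higher with the compared groups alone, and 5 without replicate 3 of line 452 and replicate 2 of line 456, an alternative added after seeing the data. Line 452 against 456 gave 0 lower with a mean of at least 50, with the compared groups alone and with the replicate block. Line 412 against 441 gave 1 higher with a constant of 5, and 1 higher and 1 lower with the compared groups alone. The line as the unit leaves fewer units and takes its spread from differences between lines of a class. The causes of all these changes were not tested.

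With each library left out, ER against the crosses gave 0 to 4 higher (0 without ER replicate 3, 1 without ER replicate 1 and 4 without replicate 1 of line 452) and 5 to 7 lower, high against low 1 to 2 higher and 4 to 5 lower, and medium against low 2 to 4 lower. Line 434 against 467 gave 1 to 4 higher, line 452 against 456 gave 0 to 3 lower (3 without replicate 1 of line 452) and line 412 against 441 gave 0 to 1 higher (1 without ER replicate 2). Line 434 against leaf stayed at 9 to 10 higher and 3 lower. Taken over all contigs, same-numbered libraries of different groups did not deviate together (median r = 0.0006, 10 of 84 pairs over 0.1). Of 24 libraries, 10 correlated best with their own number. A pairing by number was therefore not seen at that scale, and pairing in part of the contigs was not tested. The replicate block ended only the call of Helianthus31623 for line 452 against 456 (adjusted p = 0.0547). Low contigs such as the STK match were near 3 reads in nectaries, where differences were not detectable.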
